A study of Mus musculus with 4 samples.

Results

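The genes described here are 10 components of bone morphogenetic protein (BMP) signalling and its Id targets: Id1, Id2, Id3, Id4, Bmp4, Bmp7, Bmpr1a, Bmpr1b, Smad1 and Smad6. They were chosen by gene symbol, and every probe set whose only annotated gene is one of them was read. This gave 25 of the 45037 probe sets that measure transcripts, and all 10 genes were among the 12040 genes tested. The arrays compared primary cultures from the cerebral cortex of C57BL6 mice, 2 of neurons and 2 of astrocytes, which the titles name biological replicates. The neurons came from fetuses of embryonic day 16, were held 7 days in vitro by the series design, and grew with 1% serum (fetal calf) at a glucose level of 19.4 mM. The astrocytes came from newborn mice, were held 20 days by the same text, and grew in 10% serum and 33 mM glucose. The protocol text instead gives 7 to 8 days for all assays. No genetic change or drug was applied to either group. Cell type, donor age, medium and time in culture changed together and cannot be told apart.

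BMPs are secreted ligands of the TGF-beta family. They bring together type I and type II receptor kinases at the cell surface, and the type I receptor phosphorylates SMAD1, SMAD5 and SMAD9, which enter the nucleus with SMAD4. The Id genes are among the most direct transcriptional targets. Their products are helix-loop-helix proteins without a DNA-binding region, which pair with E proteins and so keep these from working with proneural factors. In the developing brain BMP signalling is known to favour astrocyte over neuron and oligodendrocyte fates.

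Signals of a group were close on its arrays, with a correlation of log2 values across kept probe sets of 0.980 for neurons and 0.983 for astrocytes. The level of background was set by 27 controls, probe sets against Bacillus subtilis RNA, and the brightest of them read 15 to 23 depending on the array. The labels were checked against marker genes. All 11 neuron markers were higher in neurons, and Tubb3, the neuronal beta-tubulin, lay at 2875 and 3021 on the neuron arrays against 68 and 63 in astrocytes. Of the 10 astrocyte markers, astrocytes had more of 7 and neurons more of 2. Gfap, the astrocyte filament gene, lay at 1744 and 2133 in astrocytes against 2 and 109 in neurons. The 2 higher in neurons were Slc1a2 (1832 and 1865 in neurons against 431 and 379) and Aldoc (2574 and 3422 against 1842 and 2076). Summed, the astrocyte markers gave 8697 and 9998 on the neuron arrays against 19631 and 20072 on the astrocyte arrays. In bulk cultures such as these, fewer cells of a type and less RNA per cell cannot be told apart.

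The Id genes and most of the signalling genes had the higher signal in astrocytes. Of the 10 members 8 were called higher in astrocytes, 1, Bmpr1b, was called higher in neurons, and 1, Bmp7, was not called. A call is an adjusted p under 0.05 in limma, with Benjamini-Hochberg adjustment over all kept probe sets, and every adjusted p below is from that fit. The background is high, since 62.2% of all genes tested were called, 31.1% higher in astrocytes and 31.0% higher in neurons. The median log2 difference, neurons minus astrocytes, was -1.66 over the members, also with Smad6 set to its lower bound, and 0.02 over all genes tested. On the level of probe sets, 20 of the 25 passed the filter on dim signals, 15 of them were called higher in astrocytes and 1 higher in neurons, where 27.7% and 29.4% of all kept probe sets were. Of the 10 genes, 9 had groups that did not overlap, as did 81.9% of all genes tested, so that this count is near the background. The signals by array show the size of the gaps.

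**Figure D1:**
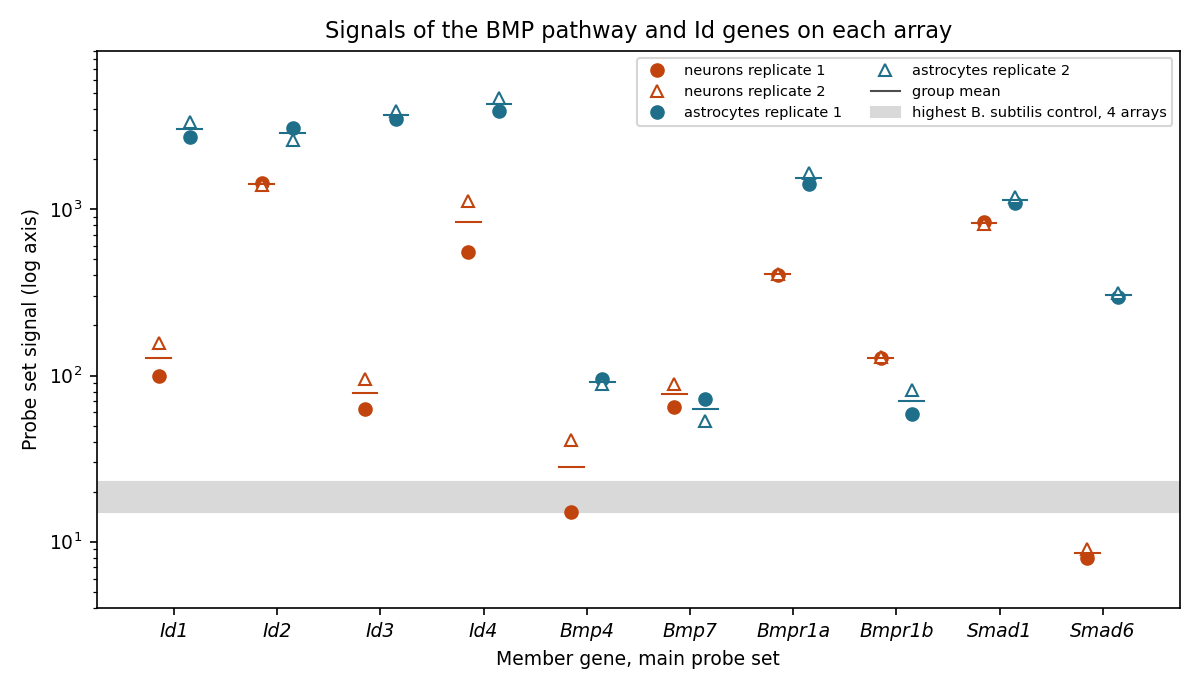
Signal of the main probe set of each member (log axis) on the 2 neuron arrays (red) and the 2 astrocyte arrays (blue), with group means as lines and the range of the highest Bacillus subtilis control on the 4 arrays in grey. Id1, Id3 and Smad6 have the widest gaps, Smad6 lies below the controls in neurons, and the arrays of Bmp7 overlap.

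Id3 showed the widest difference of the 10 genes. It lay at 63 and 95 in neurons (mean 79.0 ± 22.6, SD, n = 2) and at 3502 and 3880 in astrocytes (3691 ± 267, SD, n = 2). Both astrocyte arrays were thus far above both neuron arrays, which themselves were above the controls. Id3 was 41.1-fold higher in astrocytes, with a log2 difference of -5.36 (SE 0.18, adjusted p = 1.79e-07). Folds are on the scale of log2(signal + 12.5) and understate the change of dim genes. By excess in astrocytes it ranked 31 of the 12040 genes.

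Id1, the relative most often used as a readout of BMP activity, followed the same order. Its signals were 99 and 156 in neurons and 2716 and 3376 in astrocytes, with no overlap. The means were 128 ± 40.3 and 3046 ± 467 (SD, n = 2 each). The difference was 22.2-fold (log2 -4.47, SE 0.20, adjusted p = 6.41e-07).

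Id4, which is known in neural precursors, was well above the controls in both cultures. Its main probe set read 554 and 1119 in neurons against 3909 and 4661 in astrocytes. The neuron arrays were apart from each other, and both were under the astrocyte arrays. The difference was 5.35-fold (log2 -2.42, SE 0.27, adjusted p = 9.88e-05), and it was -2.92 without neurons replicate 2 and -1.92 without neurons replicate 1. The other Id4 probe sets gave log2 differences of -2.62 and -2.27 and were called as well.

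Id2 differed least among the 4 Id genes. It lay at 1435 and 1396 in neurons and at 3107 and 2626 in astrocytes, so that it was well above the controls in both cultures. The difference was 2.01-fold (log2 -1.01, SE 0.12, adjusted p = 1.27e-04). A second Id2 probe set read 1093 and 1322 against 2232 and 2614 (adjusted p = 2.96e-04), and the dimmest gave a log2 difference of -0.70 (adjusted p = 0.0278). All 8 probe sets of the Id family were thus called higher in astrocytes. The 95% intervals of the log2 difference were -5.77 to -4.95 for Id3, -4.94 to -4.00 for Id1, -3.05 to -1.79 for Id4 and -1.28 to -0.73 for Id2. None of these 4 intervals overlapped another, and differences between the genes were not tested.

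The start regions of Id2, Id3, Id4 and Smad6 are shown because these genes moved in the same direction and are known targets of BMP-activated SMADs. The RefSeq promoter table (build GRCm38.p6) matched 8 of the 10 members and had no entry for Id1 or Bmp7. Each sequence is the 250 bases before the annotated start, 5′ to 3′ on the strand of the gene. Capitals mark a pair of GC-rich words that BMP-activated SMADs are known to bind. The first word is GGCGCC, which reads the same on either strand. The second word is GGAGCC, whose form on the opposite strand is GGCTCC. Both strands were searched, and no match overlapped another in these windows.
Id3, chr4:136143572-136143821, plus strand: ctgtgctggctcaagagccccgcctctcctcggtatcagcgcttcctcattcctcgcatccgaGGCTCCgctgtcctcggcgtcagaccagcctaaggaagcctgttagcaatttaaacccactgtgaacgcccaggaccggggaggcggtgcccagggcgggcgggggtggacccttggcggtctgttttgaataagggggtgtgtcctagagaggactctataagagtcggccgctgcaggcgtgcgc
Id4, chr13:48260866-48261115, plus strand: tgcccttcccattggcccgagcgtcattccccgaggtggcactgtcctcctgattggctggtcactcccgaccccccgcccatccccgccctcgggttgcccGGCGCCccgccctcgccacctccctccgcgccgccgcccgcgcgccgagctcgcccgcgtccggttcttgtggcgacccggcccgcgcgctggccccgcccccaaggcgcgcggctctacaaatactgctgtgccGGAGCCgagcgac
Id2, chr12:25096093-25096342, minus strand: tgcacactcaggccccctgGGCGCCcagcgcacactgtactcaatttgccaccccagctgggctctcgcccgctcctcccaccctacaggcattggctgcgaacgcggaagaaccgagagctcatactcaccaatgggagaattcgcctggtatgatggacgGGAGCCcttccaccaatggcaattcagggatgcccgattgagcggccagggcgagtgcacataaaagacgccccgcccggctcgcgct
Smad6, chr9:64022060-64022309, minus strand: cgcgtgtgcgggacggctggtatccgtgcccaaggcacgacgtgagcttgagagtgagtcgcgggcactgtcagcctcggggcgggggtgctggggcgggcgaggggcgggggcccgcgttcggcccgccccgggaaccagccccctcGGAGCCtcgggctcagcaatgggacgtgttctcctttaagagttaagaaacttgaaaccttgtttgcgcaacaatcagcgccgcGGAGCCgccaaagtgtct

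GGCGCC occurred once in Id4 and once in Id2, and 9.59% of all 32851 windows of this length in the table hold it. GGAGCC occurred once each in Id3, Id4 and Id2 and 2 times in Smad6, against 26.0% of all windows with at least 1 match. In Smad6 the matches began 102 and 18 bases before the start, and in Id4 the nearer one 13 bases before it. Among the members not shown, GGAGCC was also present in Bmp4 and in some windows of Bmpr1b, the member called higher in neurons. GGCGCC was present in Bmpr1a, and Smad1 held neither word. At least 1 of the words was present in 31.7% of all windows, so that a match is common and is a description of these letters only.

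Smad6, an inhibitory SMAD that BMP signalling is known to induce, was above the controls in astrocytes and not in neurons. Its single probe set read 8 and 9 in neurons, below the controls, and 297 and 315 in astrocytes. Measured against the background of the neuron arrays, which is the geometric mean of their highest controls, it was at least 13.9-fold higher in astrocytes (adjusted p = 9.33e-07). Smad6 passed the filter on dim signals through its astrocyte arrays alone, and with no filter the adjusted p in limma was 2.83e-04. It ranked 128 of the 12040 genes by excess in astrocytes.

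Smad1, which carries the signal from the receptors, differed least of the 9 called members. It lay at 841 and 813 in neurons and at 1095 and 1180 in astrocytes. These groups did not overlap, and the difference of 1.37-fold was called (log2 -0.45, SE 0.12, adjusted p = 0.00927). The other 2 probe sets of Smad1 pointed the same way, with log2 differences of -0.40 and -0.31, and were not called (adjusted p = 0.0604 and 0.0580). Without neurons replicate 1, neurons replicate 2 or astrocytes replicate 2 the main probe set missed the threshold as well (adjusted p = 0.0579, 0.0706 and 0.0759).

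The 2 type I receptors among the members went in opposite directions. Bmpr1a lay at 403 and 411 in neurons and at 1426 and 1644 in astrocytes by its main probe set. It was 3.68-fold higher in astrocytes (log2 -1.88, SE 0.13, adjusted p = 4.54e-06). In all, 4 of its 5 kept probe sets were called, with log2 differences from -2.73 to -1.88. The remaining kept probe set read 41 and 42 in neurons and 54 and 63 in astrocytes (log2 -0.39, adjusted p = 0.149). A probe set that did not pass the filter read 1 and 1 against 20 and 26.

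Bmpr1b, a close relative of Bmpr1a, was dim in both cultures. Its kept probe set read 127 and 129 in neurons and 59 and 82 in astrocytes. The groups did not overlap, and it was 1.71-fold higher in neurons (log2 0.77, SE 0.20, adjusted p = 0.0110). This call was lost without neurons replicate 1 or 2 or astrocytes replicate 1 (adjusted p = 0.0979, 0.103 and 0.0875). Its other 2 probe sets read between 2 and 18 on all arrays, at or below the controls. The opposite direction of the receptors is visible in the differences by probe set.

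**Figure D2:**
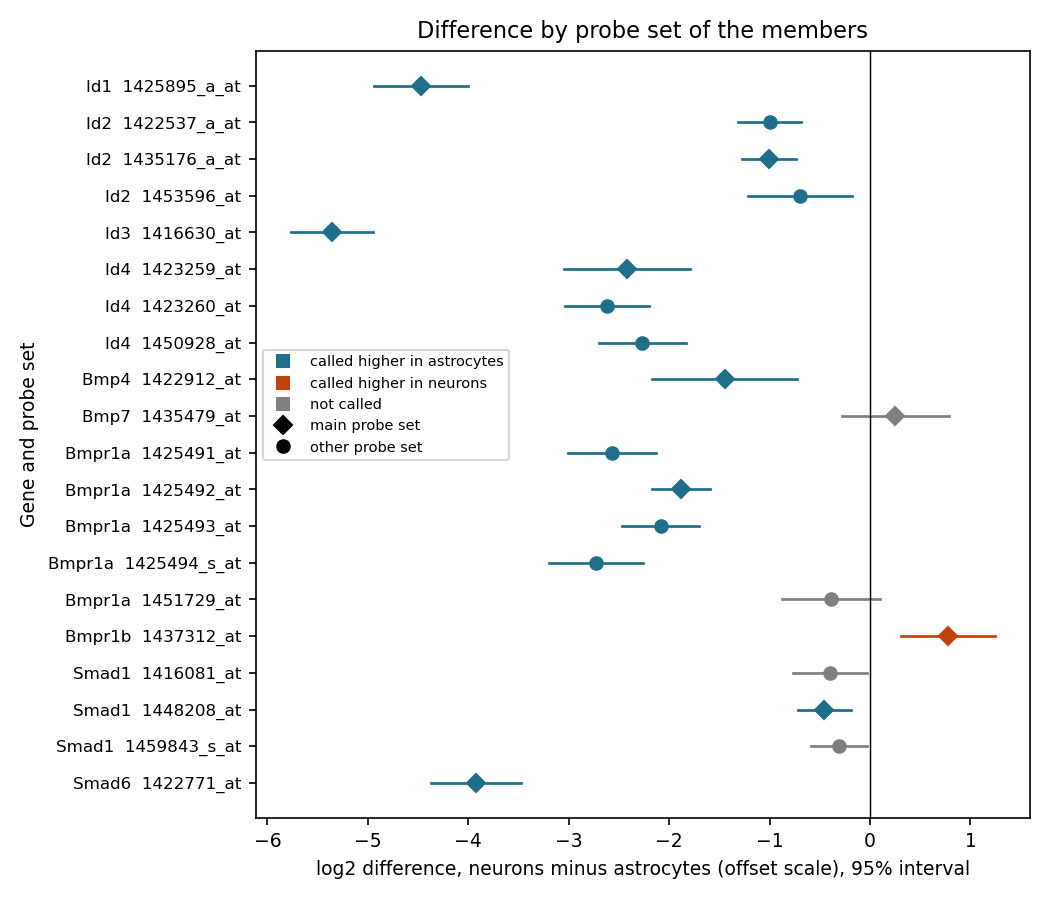
Difference in log2 signal, neurons minus astrocytes, with its 95% interval (limma) for the 20 kept probe sets of the members. Blue marks probe sets called higher in astrocytes, red higher in neurons and grey not called, and diamonds mark the main probe set of a gene. The 8 Id probe sets lie left of 0 with their whole intervals, and only Bmpr1b is called to the right.

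Of the ligands, Bmp4 was called and Bmp7 was not, and both were dim. Bmp4 read 15 and 41 in neurons and 95 and 89 in astrocytes. Only 1 neuron array was above its controls, while the groups did not overlap. The difference was 2.72-fold (log2 -1.45, SE 0.31, adjusted p = 0.00425). With the offset multiplied or divided by 4 it was -0.88 or -1.75. It moved to -0.97 without neurons replicate 1 and to -1.93 without neurons replicate 2, and leaving out astrocytes replicate 1 or astrocytes replicate 2 ended the call (adjusted p = 0.117 and 0.106).

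Bmp7 read 65 and 89 in neurons and 72 and 53 in astrocytes by its only kept probe set. The arrays of the groups overlapped, with a log2 difference of 0.25 (95% interval -0.28 to 0.79, adjusted p = 0.385). The interval allows a difference in either direction. Its other 2 probe sets read between 1 and 28.

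Signs of other cells moved with these results. The summed signal of 12 fibroblast and meningeal markers was 610 and 791 in neurons against 13178 and 13328 in astrocytes. Of 11 tested, 9 were higher in astrocytes and 1 in neurons. Fmod (5526 and 5541), Ogn (3477 and 3368) and Islr (2465 and 2689) made up most of the astrocyte sums. The collagen gene Col1a1 was dim there (41 and 103) and Dcn was not called. Lum was the marker higher in neurons (40 and 45 against 23 and 17). For 10 endothelial and mural markers the sums were 228 and 636 against 7963 and 8754, with 3 of 5 higher in astrocytes. The smooth muscle actin gene Acta2 made up much of that sum (87 and 361 against 4544 and 4791). The endothelial genes Pecam1, Cldn5, Tek, Cdh5 and Flt1 were too dim to be tested, and Pecam1 lay below the controls on all arrays. Cdh5 was above the controls on both astrocyte arrays (29 and 29). Kdr, the endothelial gene that was tested, was above the controls on all arrays and was not called (adjusted p = 0.331). It read 29 and 42 in neurons and 50 and 42 in astrocytes. For 10 microglia and macrophage markers the sums were 154 and 199 against 883 and 847, with 5 of 6 higher in astrocytes. For 6 ependymal and choroid plexus markers they were 121 and 108 against 844 and 901, with both tested markers higher in astrocytes. Oligodendrocyte lineage markers ran the other way in 4 of 5 tested genes (2152 and 2455 against 1459 and 1656). Cnp, the tested gene higher in astrocytes, made up most of the astrocyte sums (1344 and 1536). Of the 4 higher in neurons, Pdgfra differed most, at 1177 and 1302 in neurons against 19 and 21 in astrocytes. Of the progenitor list, which includes radial glia genes, 5 could be tested: astrocytes had more of 3 and neurons more of 1. The part of these cells in the Id and BMP differences was not tested.

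**Figure D3:**
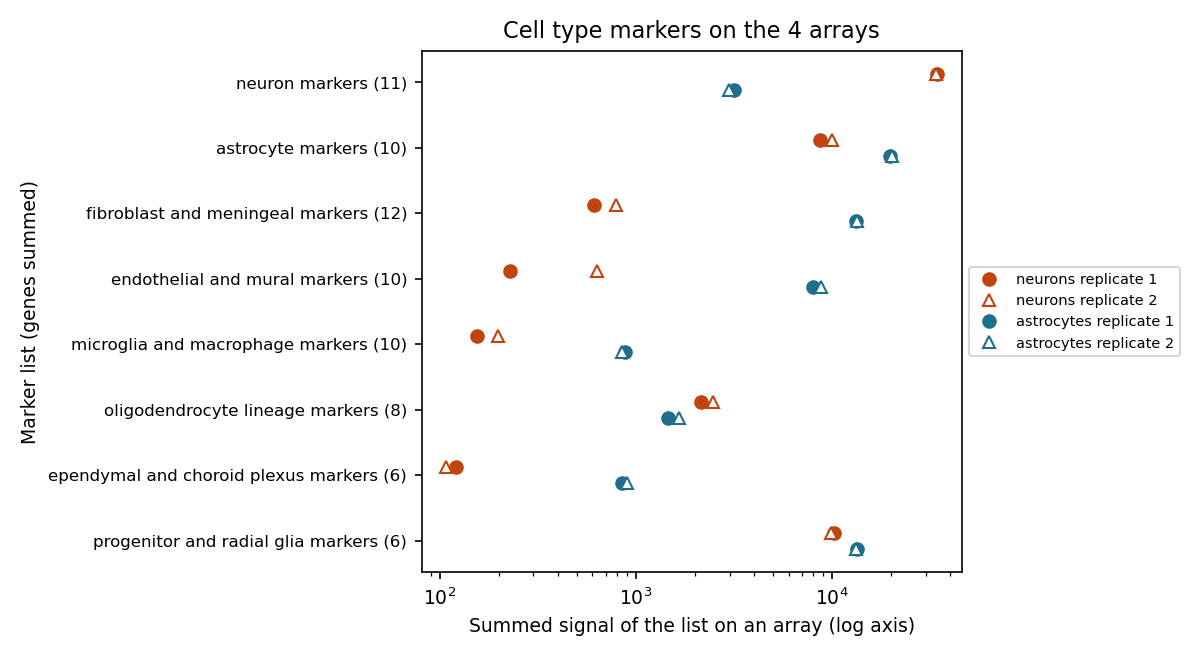
Summed signal (log axis) of each cell type marker list on the neuron arrays (red) and astrocyte arrays (blue), with the number of genes summed in parentheses. Fibroblast and meningeal markers sum to 610 and 791 in neurons and to 13178 and 13328 in astrocytes, and the astrocyte markers differ less. Most of the fibroblast and meningeal sum in astrocytes comes from Fmod, Ogn and Islr.

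The rest of the network was read from 7 lists of 80 genes, of which 50 could be tested. Of these, 20 were called with more signal in astrocytes, 14 with more in neurons and 16 not at all, with a median log2 difference of -0.02. As a whole these genes therefore had about the same median as all genes tested (0.02).

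Among 13 other BMP and GDF ligands, 3 had no probe set of their own and 8 were too dim to be tested. The 2 that were tested went opposite ways. Bmp6 lay at 16 and 24 in neurons and at 344 and 373 in astrocytes, 11.5-fold higher there (log2 -3.52, SE 0.20, adjusted p = 1.87e-06). Only 1 neuron array was above its controls. Gdf10 was 4.66-fold higher in neurons, at 149 and 123 against 13 and 27 (adjusted p = 1.29e-04). Only 1 astrocyte array was above its controls, and the log2 difference of 2.22 ran from 1.41 with an offset 4 times as large to 2.65 with the offset divided by 4. With the same offsets Bmp6 ran from -2.55 to -3.99. Bmp2 read 33 and 39 in neurons and 19 and 6 in astrocytes and was too dim to be tested, as were 7 more ligands.

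The other BMP receptors and co-receptors had no gene called higher in astrocytes. Of 7 tested, 4 were higher in neurons and 3 were not called, with a median log2 difference of 1.16. Rgmb, 1 of the 4 (log2 1.64), also had a dimmer probe set called higher in astrocytes (log2 -0.60, adjusted p = 0.0316). Acvr2a, a type II receptor shared with activins, lay at 1036 and 1210 in neurons and at 187 and 185 in astrocytes, 5.70-fold higher in neurons (log2 2.51, SE 0.14, adjusted p = 1.55e-06). Bmpr2, the type II receptor dedicated to BMPs, was bright in both, at 2781 and 2857 against 2329 and 2392 (log2 0.25, adjusted p = 0.0583). It passed with a filter at the 75th percentile (adjusted p = 0.0474), with quantile normalization (0.0427) and without probe sets ending in _x_at, _s_at or _a_at (0.0482), while the mean of its probe sets turned to -0.04. The count of receptors called higher in neurons was 2 without neurons replicate 2.

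Extracellular antagonists and modulators were split. Of 11 tested, 5 had more signal in astrocytes, 3 had more in neurons and 3 were not called, with a median of -0.27. Chrdl1, a secreted BMP binder, lay at 22 and 33 in neurons and at 812 and 697 in astrocytes, 19.3-fold higher there (log2 -4.27, SE 0.19, adjusted p = 6.06e-07). Fstl1, a secreted follistatin relative, was 5.53-fold higher in astrocytes (1900 and 1866 against 325 and 335). Follistatin itself, Fst, which binds activins and BMPs, was 4.67-fold higher in neurons, at 110 and 161 against 23 and 15 (adjusted p = 1.06e-04). Only 1 astrocyte array was above its controls, and the log2 difference of 2.22 ran from 1.42 to 2.65 with the larger and the smaller offset. That of Chrdl1 ran from -3.38 to -4.65. With the filter at the 75th percentile 0 antagonists were called higher in neurons. Noggin (Nog) read between 4 and 5 on all arrays and could not be tested.

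Among the other SMADs and intracellular regulators, 7 of 14 had more signal in astrocytes, 3 had more in neurons and 4 were not called (median -0.33). The first count was 4 without astrocytes replicate 1 and also without astrocytes replicate 2. Bambi, a decoy receptor without a kinase that BMP signalling is known to induce, was 5.48-fold higher in astrocytes (35 and 51 against 280 and 297, adjusted p = 1.39e-05). Skil, a co-repressor of SMADs, was 2.46-fold higher in neurons (989 and 959 against 414 and 363, adjusted p = 4.28e-05). Smad4, the common partner, lay at 1299 and 1289 in neurons and at 1230 and 1390 in astrocytes (log2 -0.01, adjusted p = 0.924). Its other 2 probe sets had log2 differences of -0.31 (adjusted p = 0.111) and -0.47 (adjusted p = 0.0193). The latter stands for the gene when probe sets ending in _x_at, _s_at or _a_at are left out, and it was then called higher in astrocytes (adjusted p = 0.0162). Ppm1a was not called by its main probe set (log2 0.24, adjusted p = 0.130). Its other kept probe sets were all called higher in astrocytes, with log2 differences from -2.10 to -0.56. With the kept probe sets of each gene averaged, 8 genes of this list were called higher in astrocytes.

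Of 8 other BMP target genes tested, 5 had more signal in astrocytes, 0 had more in neurons and 3 were not called. Their median log2 difference was -0.96, and the count was 3 without astrocytes replicate 1 and 2 with the filter at the 75th percentile. Atoh8, a helix-loop-helix gene induced by BMPs, read 4 and 2 in neurons and 102 and 153 in astrocytes. It was at least 5.68-fold higher in astrocytes against the background of the neuron arrays (adjusted p = 1.72e-05). Hey1, a repressor that Notch and BMP signals both induce, was 3.65-fold higher in astrocytes (199 and 174 against 648 and 784, adjusted p = 1.48e-05).

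**Figure D4:**
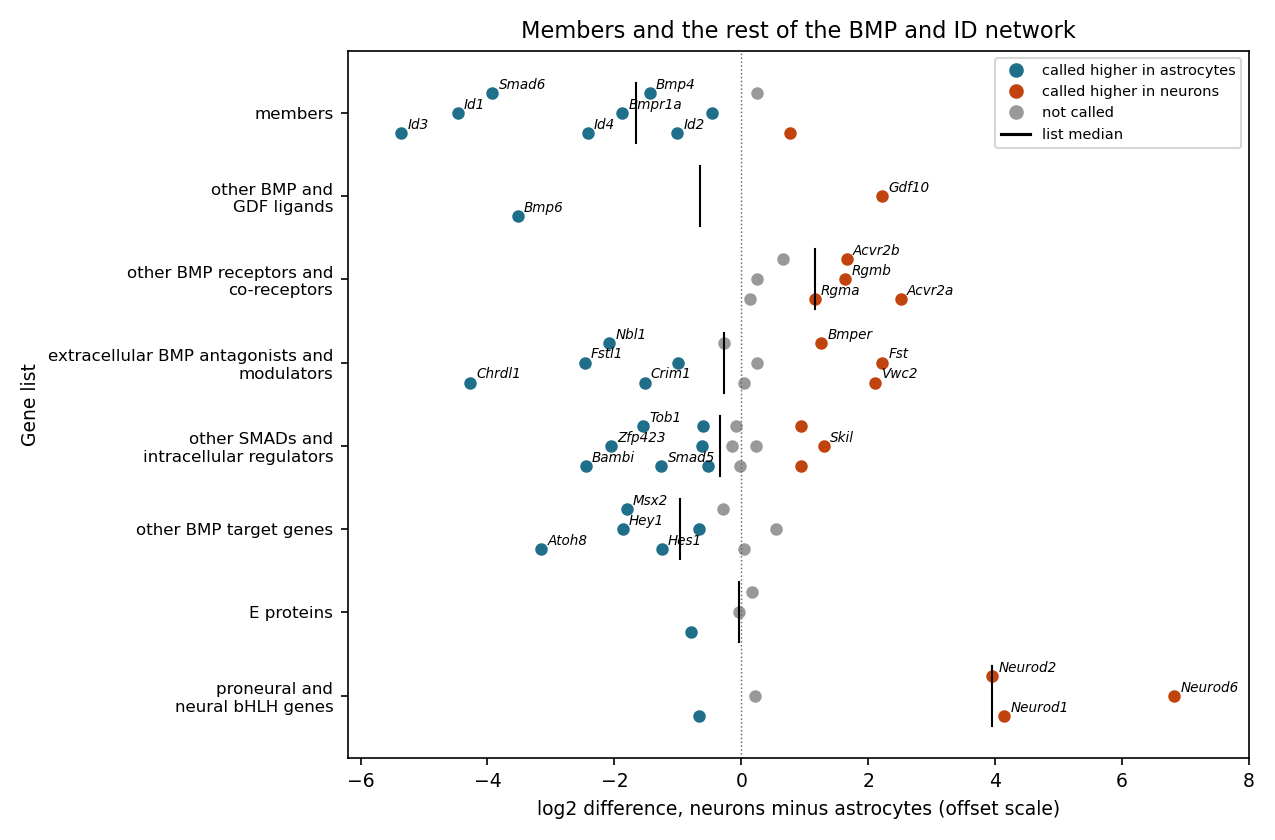
Difference in log2 signal, neurons minus astrocytes, of each tested gene in the members and in the 7 lists of the network, with list medians as black bars. Blue points were called higher in astrocytes, red points higher in neurons and grey points were not called. Each gene is shown by its main probe set. No other target gene is red, and no gene in the list of other receptors is blue, with Bambi placed among the intracellular regulators.

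Of the 3 E proteins, which the ID proteins bind, 1 was called higher in astrocytes and 2 were not called. Tcf4 was bright on all arrays, at 3727 and 3929 in neurons and at 3379 and 3391 in astrocytes (log2 0.18, adjusted p = 0.159). The main probe set of Tcf12 was 1.73-fold higher in astrocytes (1059 and 957 against 1784 and 1726, adjusted p = 4.02e-04). Its dimmer probe sets were mixed, with 2 called the same way (log2 -1.14 and -1.55), 1 called the other way (log2 0.90, adjusted p = 0.00873) and 1 not called (log2 -0.15, adjusted p = 0.497). The last of these stands for the gene when probe sets ending in _x_at, _s_at or _a_at are left out.

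Proneural and neural helix-loop-helix genes, the partners of E proteins in neurons, were often too dim to be tested (6 of 11 measured). Of 5 tested, neurons had more of 3, astrocytes more of 1, and 1 was not called (median 3.95). Neurod6, a factor of cortical projection neurons, lay at 1449 and 1715 in neurons and at 1 and 2 in astrocytes, at least 98.7-fold higher in neurons (adjusted p = 1.10e-07). Olig1, a gene of the oligodendrocyte lineage, was 1.59-fold higher in astrocytes (2899 and 1895 against 3500 and 3997, adjusted p = 0.0137). The call ended when neurons replicate 2 (adjusted p = 0.134), astrocytes replicate 1 (0.142) or astrocytes replicate 2 (0.227) was left out, with no filter (0.0886) and with no mean-variance trend (0.0512).

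The genes most like Id3 over the 4 arrays were Neat1, Serpinf1 and Ccn1. Likeness was the Euclidean distance between log2 profiles after each gene's mean was removed, which was 0.11, 0.12 and 0.19. Serpinf1, which encodes a secreted serpin, read 33 and 46 in neurons and 2105 and 2273 in astrocytes. Ccn1, a secreted matrix protein gene, read 74 and 129 against 4612 and 4522, and the long noncoding RNA gene Neat1 read 3 and 9 against 721 and 722. The neuron values of Neat1, unlike those of Id3, were below the controls, so its distance depends in part on the offset. For Bmpr1b, the member called higher in neurons, they were Surf2, Pomk and Bpgm, at distances of 0.0346, 0.0370 and 0.0397. With 4 arrays many genes share such a profile, and it describes the arrays only.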

How the data were processed

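The labels' protocols give Trizol extraction and, from 50 ng of total RNA, biotin labelling after 2 cycles of cDNA synthesis. The authors deposited 1 intensity per probe set and array on a linear scale, made with MAS5 per the submitters' processing notes. Its version is not given. Each array had a trimmed mean near 150 (149.997 to 150.002). Symbols came from the platform annotation, updated by Entrez identifier, and 34945 of 45037 probe sets had 1 symbol.

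Values were transformed to log2(value + 12.5), the offset being the median over arrays of the 25th percentile. Kept were 25019 probe sets with at least 2 of 4 arrays at or above the array's median. A probe set can thus pass through the arrays of its brighter group alone. Those of Smad6, Bmp6, Gdf10, Chrdl1, Fst, Atoh8 and Neurod6 did so, among others. Where several kept probe sets name a gene, the brightest on average stands for it. limma 3.58.1 in R 4.3.3 was used (mean-variance trend, two-sided, 2 residual and 6.27 prior degrees of freedom, median SE 0.18), and tested on simulated data. An exact permutation test of 2 against 2 arrays cannot go below p = 0.333. The number of arrays limits the precision. Same-numbered arrays did not deviate together (r = -0.09), so the numbers were not taken as pairs.

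Members and lists were chosen with earlier results of these data known. Named were all members, the largest call in each direction and the brightest gene of each pathway list, 3 like genes each for Id3 and Bmpr1b, the brightest gene of each marker list, Gfap and Tubb3. Bmp2, Nog, Slc1a2, Rgmb, Ppm1a, Ogn, Islr, Col1a1, Dcn, Lum, Pdgfra, Bmpr1a's dim probe sets and the endothelial markers were named after their values were seen. The rule for background was set after the control values were seen. Of the brightest markers, Stmn2 lay at 5727 and 6022 in neurons against 1465 and 1485 in astrocytes, Aldoc at 2574 and 3422 against 1842 and 2076, Fmod at 21 and 118 against 5526 and 5541, Csf1r at 47 and 40 against 149 and 151, Cnp at 366 and 500 against 1344 and 1536, Foxj1 at 35 and 24 against 410 and 407, and Fabp7 at 8615 and 8404 against 7941 and 8150.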

Additional observations from a re-analysis of the deposited data

How the results depend on the processing

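Under 14 alternatives (2 offsets, 2 filters, 2 normalizations, no trend, the replicate block, each array left out, and 2 choices of probe sets), no member changed direction. Of 136 member values, 128 kept their side of the threshold and 8 lost the call: those of Bmp4, Bmpr1b and Smad1 given above, with an array left out. The members called higher in astrocytes numbered 6 to 8, and with the replicate block 8, with 1 higher in neurons. The block changed no call of a member. The 1 member gene and 1 member probe set higher in neurons, both Bmpr1b, became 0 with a filter at the 75th percentile, which leaves Bmpr1b, Bmp4 and Bmp7 untested. With an array left out these counts lay between 0 and 1 in limma, and at an unadjusted p under 0.05 they also lay between 0 and 1. Of 16 named pathway genes, Smad4, not called, turned to 0.0593 with quantile normalization and lay between -0.102 and 0.0725 with an array left out (0.0725 without astrocytes replicate 2), and Bmpr2 turned to -0.0391 with its probe sets averaged; the cause was not tested. Of the 4 pathway values that gained a call, 3 were of Bmpr2 and 1 of Smad4 (-0.471, without probe sets ending in _x_at, _s_at or _a_at). The filter at the 75th percentile, which tests fewer genes, left 2 of 5 target genes higher in astrocytes and, higher in neurons, 0 of 3 antagonists and 0 of 1 ligand; without a filter 2 ligands were higher in neurons. Id1 has no probe set left without those ending in _a_at. Dim probe sets, such as those of the ligands, limit what can be read.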

Other observations

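On the neuron arrays, 8 of the 10 members read higher on replicate 2 than on replicate 1. Among them were Id1 (156 against 99), Id3 (95 against 63), Id4 (1119 against 554), Bmp4 (41 against 15) and Bmp7 (89 against 65). Smad6 (9 against 8), Bmpr1a (411 against 403) and Bmpr1b (129 against 127) differed little between these arrays. Id2 (1396 against 1435) and Smad1 (813 against 841) read lower on replicate 2. Among the 874 genes called at least 4-fold higher in astrocytes, 57.1% read higher on neurons replicate 2, against 46.0% of all genes tested. Of the astrocyte markers 7 of 10 read higher on replicate 2 and 2 read lower, with Gfap at 109 against 2. Of the fibroblast and meningeal markers 9 of 12 read higher on replicate 2, with Fmod at 118 against 21. The 3 that read lower were the collagens Col1a1 (24 against 27), Col1a2 (20 against 63) and Col3a1 (13 against 69). Of the endothelial and mural markers 8 of 10 did, with Acta2 at 361 against 87 and Tagln at 95 against 6. However, 5 of these 10 were above the controls on neither neuron array. That limit also applied to 3 of the 12 fibroblast and meningeal markers and 6 of the 10 microglia and macrophage markers. It applied as well to 2 of the 8 oligodendrocyte lineage markers and 3 of the 6 ependymal and choroid plexus markers. Replicate 2 also read higher for 6 of 10 microglia and macrophage, 5 of 8 oligodendrocyte lineage and 5 of 11 neuron markers. The same held for 2 of 6 ependymal and choroid plexus markers and for 1 of 6 progenitor markers, with Nes at 52 against 162. The part of these cells in the Id values was not tested. Genes were named here after their values were seen.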
